A study of Mus musculus with 6 samples.

Results

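The 10 genes described here encode chemokines of the CXC and CX3C families, and they were read in the aorta of young and aged mice. They were chosen by symbol as Cxcl1, Cxcl2, Cxcl5, Cxcl9, Cxcl10, Cxcl12, Cxcl13, Cxcl14, Cxcl16 and Cx3cl1, and all 10 were found among the 55335 genes of the count table. The animals were wild-type C57BL/6 mice without treatment, 3 young mice aged 6 weeks and 3 aged mice aged 6 months, described as male by the study. The aorta of each mouse gave 1 library, and the study describes dissecting the surrounding fat. The comparison of aged with young aorta asks how expression in the vessel wall changes with age, and 6 months is an adult rather than an old age for a mouse.

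Chemokines are small proteins that direct the migration of leukocytes by forming gradients on the vessel wall and binding G protein-coupled receptors. The CXC members with a Glu-Leu-Arg motif, among them Cxcl1, Cxcl2 and Cxcl5, act on Cxcr2 and draw neutrophils. Cxcl9 and Cxcl10 are induced by interferon and act on Cxcr3 of T and natural killer cells, whereas Cxcl12 is made constitutively by stromal cells and acts on Cxcr4, with Ackr3 as a scavenging receptor. Cxcl13 draws B cells through Cxcr5, and Cxcl14 is a homeostatic chemokine of epithelial and stromal tissues. Cxcl16 and Cx3cl1 differ from the others in being made as transmembrane proteins, which the proteases Adam10 and Adam17 can release, and their receptors are Cxcr6 and Cx3cr1. In bulk tissue, a change in the number of cells of a type and a change in RNA per cell cannot be told apart.

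The promoters of the inducible genes Cxcl1, Cxcl2 and Cxcl10 and of the constitutive gene Cxcl12 are shown because they differ in the letters that common factors read. Promoters of 8 of the 10 genes were matched by symbol in a RefSeq table on build GRCm38.p6, each with 250 bases before and 50 bases after the annotated start. Cxcl5 and Cxcl16 had no entry. Searched on both strands were the NF-kB letters (GGG, any 3 bases, TTCC), the interferon response or ISRE letters (TTTC, any 2 bases, TTTC), the AP-1 letters TGANTCA and the GC box GGGCGG, and capitals mark every match. The Cxcl1 promoter lies at chr5:90890995-90891294 on the plus strand, that of Cxcl2 at chr5:90903649-90903948 on the plus strand, that of Cxcl10 at chr5:92348840-92349139 on the minus strand, and that of Cxcl12 at chr6:117168285-117168584 on the plus strand.
Cxcl1: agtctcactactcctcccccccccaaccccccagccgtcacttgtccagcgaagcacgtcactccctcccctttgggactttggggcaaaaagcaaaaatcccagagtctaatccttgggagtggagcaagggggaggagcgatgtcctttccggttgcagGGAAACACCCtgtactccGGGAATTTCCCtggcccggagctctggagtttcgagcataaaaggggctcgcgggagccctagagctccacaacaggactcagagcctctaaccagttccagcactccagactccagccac
Cxcl2: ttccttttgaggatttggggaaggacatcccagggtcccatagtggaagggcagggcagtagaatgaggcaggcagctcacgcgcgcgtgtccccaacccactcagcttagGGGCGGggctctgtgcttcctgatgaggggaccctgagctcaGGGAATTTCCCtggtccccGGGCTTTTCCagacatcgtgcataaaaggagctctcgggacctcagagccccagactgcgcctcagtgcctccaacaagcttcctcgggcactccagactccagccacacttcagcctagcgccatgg
Cxcl10: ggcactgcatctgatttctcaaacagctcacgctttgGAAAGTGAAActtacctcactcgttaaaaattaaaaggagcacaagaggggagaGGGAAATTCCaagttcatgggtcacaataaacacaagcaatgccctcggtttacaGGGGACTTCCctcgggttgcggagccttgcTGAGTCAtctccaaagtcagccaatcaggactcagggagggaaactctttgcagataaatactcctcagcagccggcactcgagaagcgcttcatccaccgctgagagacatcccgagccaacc
Cxcl12: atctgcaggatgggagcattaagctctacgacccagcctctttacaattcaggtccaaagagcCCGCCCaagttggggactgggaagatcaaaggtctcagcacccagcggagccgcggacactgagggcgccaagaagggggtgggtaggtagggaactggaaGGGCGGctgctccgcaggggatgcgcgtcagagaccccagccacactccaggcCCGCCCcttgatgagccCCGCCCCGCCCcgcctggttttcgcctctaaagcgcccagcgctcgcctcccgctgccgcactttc

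The NF-kB letters were found in 3 of the 8 promoters, those of Cxcl1, Cxcl2 and Cxcl10, and in 5.56% of all 32851 promoters of the table. In Cxcl1 and Cxcl2 the plus strand match GGGAATTTCC is overlapped, 1 base further on, by the minus strand match GGAATTTCCC. The ISRE letters were found in Cxcl10 and Cxcl14, and in 3.44% of all promoters. The AP-1 letters were found in Cxcl9 and Cxcl10, and in 7.81% of all promoters. Cxcl12 held 5 GC boxes, of which the last 2 share 1 base, and had no match to the other letters. GC boxes were found in 4 of the 8 promoters and in 35.7% of all promoters. A match is a description of the letters alone.

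Values are given as CPM, the reads of a gene scaled to the size of its library after TMM normalization, for comparing libraries, and as the authors' FPKM, which also scales for gene length, for comparing genes. The libraries held between 31049632 and 45832185 reads counted on genes. Smooth muscle markers, which define the wall of the aorta, were abundant, with Acta2 at 12229 CPM or more and Myh11 at 6152 CPM or more in every library. Young replicate 1 stood apart, with Xist at 305.6 CPM against 0.636 or less elsewhere and Ddx3y at 53 reads against at least 1488 elsewhere, so this library goes against the description as male. It also held the clock gene Dbp at 10.1 CPM, against 125 to 436 elsewhere, and Arntl and Npas2 at 49.8 and 71.2 CPM, against at most 8.14 and 9.97 elsewhere. Reads of fat were present in every library, with the brown fat marker Ucp1 at 45.2 CPM or more. Aged replicate 2 stood apart from the other aged libraries in brown fat markers, with Ucp1 at 1422 CPM against 45.2 to 361 in the other 5 libraries. Where leaving out a library, these or another, moved a chemokine or receptor value by more than 1.5 times, the value without it is given below. In the edgeR quasi-likelihood fit, 0 of 16612 genes (0%) passed a Benjamini-Hochberg adjusted p of 0.05, and 1723 of them (10.4%) had an unadjusted p under 0.05. Of 10 clock genes, Clock alone had an unadjusted p under 0.05, lower in aged aorta (adjusted p = 0.429 by edgeR). DESeq2 called 311 genes, 2.08% of the 14964 genes to which it gave an adjusted p.

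Cxcl12, a stromal chemokine that retains and recruits cells bearing Cxcr4, was the most abundant of the 10 genes per length in either group. The FPKM of Cxcl12 was 4.77 ± 0.0480 (SD, n = 3) in young aorta and 13.0 ± 10.8 (SD, n = 3) in aged aorta. In young aorta Cx3cl1 followed at 2.73 ± 0.870 FPKM and Cxcl16 at 2.11 ± 0.129 FPKM (SD, n = 3 each), and these neighbours overlapped. Cxcl1 at 1.10 ± 0.283 and Cxcl9 at 0.777 ± 0.0747 FPKM (SD, n = 3 each) came next in young aorta, each clear of its neighbours in every library. The other 5 genes, Cxcl5, Cxcl13, Cxcl2, Cxcl14 and Cxcl10, had young means of 0.183 FPKM or less, and no neighbours among them were separated. In aged aorta only Cxcl12 was clear of the next gene, and the order below it was Cxcl16, Cx3cl1, Cxcl1, Cxcl9, Cxcl14, Cxcl2, Cxcl5, Cxcl13 and Cxcl10, each overlapping with its neighbour. Summed over the 10 genes, FPKM was 12.8, 11.6 and 11.6 in young replicates 1, 2 and 3 and 40.4, 14.0 and 15.9 in aged replicates 1, 2 and 3. Summed CPM, which carries the TMM normalization, was 67.9, 60.9 and 61.2 in young and 297, 97.4 and 96.9 in aged replicates 1, 2 and 3. Cxcl12 made up between 37.0% and 41.4% of the FPKM sum in young aorta, and 62.7%, 57.6% and 35.2% in aged replicates 1, 2 and 3.

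**Figure D1:**
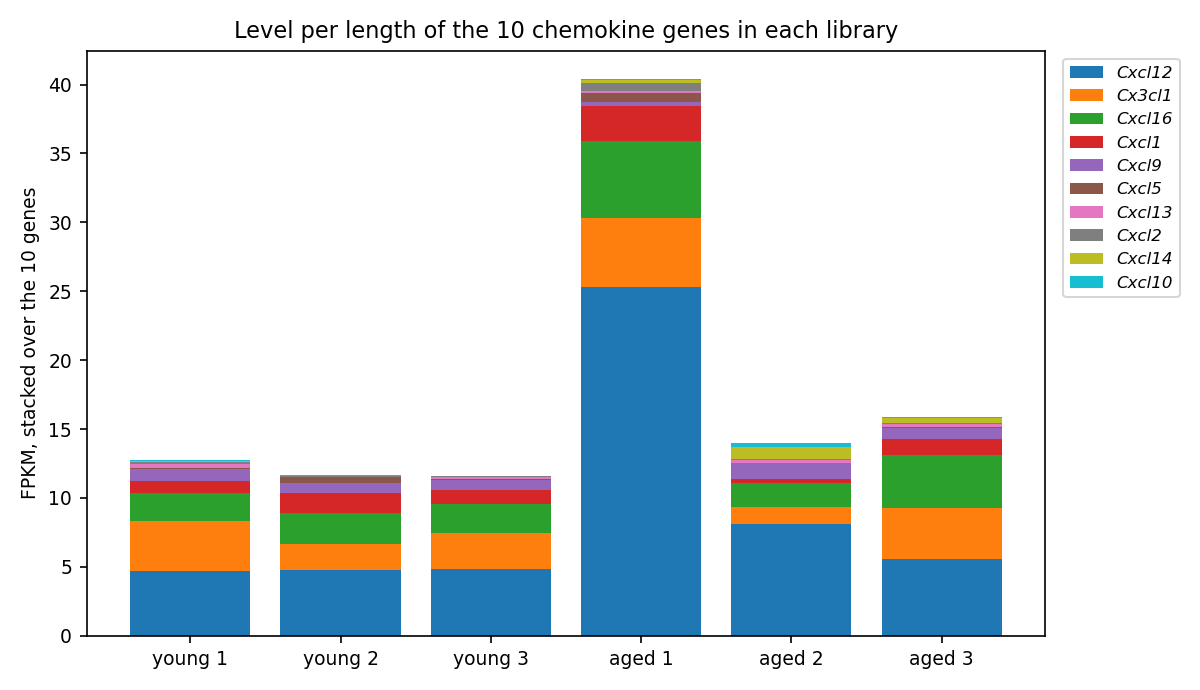
Stacked bars give the FPKM of the 10 chemokine genes in each of the 6 aorta libraries, from 0 upwards. The 3 young libraries reach between 11.6 and 12.8 FPKM with similar makeup, and aged replicate 1 reaches 40.4 FPKM, mostly through Cxcl12.

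Of the 10 genes, 7 had enough reads to be tested, and all fitted differences of these 7 were above 0. Over all genes tested, 52.1% were above 0 and 47.9% below. Reads of mitochondrial genes took 14.9% to 21.2% of counts in young and 23.1% to 30.4% in aged libraries, without overlap, and their part in these differences cannot be told apart from age. With mitochondrial, gene copy and rRNA-like entries left out of the fit, 8 chemokine genes were tested, because Cxcl10 then met the low count filter. Of these 8, 0 passed the adjusted limit by edgeR. An unadjusted p under 0.05 was seen in 4 of the 8, Cxcl10 included, and in 10.2% of all genes in that fit. Cxcl10 met the filter there through its aged libraries alone, with 10, 3 and 1 young reads against 13, 30 and 9 aged reads. The difference of Cxcl10 is therefore partly a condition of its being tested in that fit. The log2 fold changes of Cxcl12 and Cxcl16 were 1.65 and 1.03 there. Of the 7 genes, 0 passed an adjusted p of 0.05 by edgeR, where the background was 0%. Cxcl12, Cxcl14 and Cxcl16 had an unadjusted p under 0.05 and were higher in aged aorta, where 5.56% of all genes tested were higher and 4.82% lower at that limit. The median log2 fold change was 0.83 over the 7 genes, which is the value of Cxcl13, a gene of few reads. It was 0.02 over all genes tested. The filter kept genes with about 0.298 CPM before normalization in at least 3 libraries, and Cxcl14 met it through its 3 aged libraries alone. Its difference is therefore partly a condition of its being tested. The same holds for its part in the median and in the count of genes above 0. Cxcl2, Cxcl5 and Cxcl10 were not tested for low counts. In Cxcl10, Cxcl12 and Cxcl14 every aged library lay above every young library. That held for 7.74% of genes tested, the opposite order for 8.78%, and either for 16.5%, and the fit tested only Cxcl12 and Cxcl14 of these 3.

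**Figure D2:**
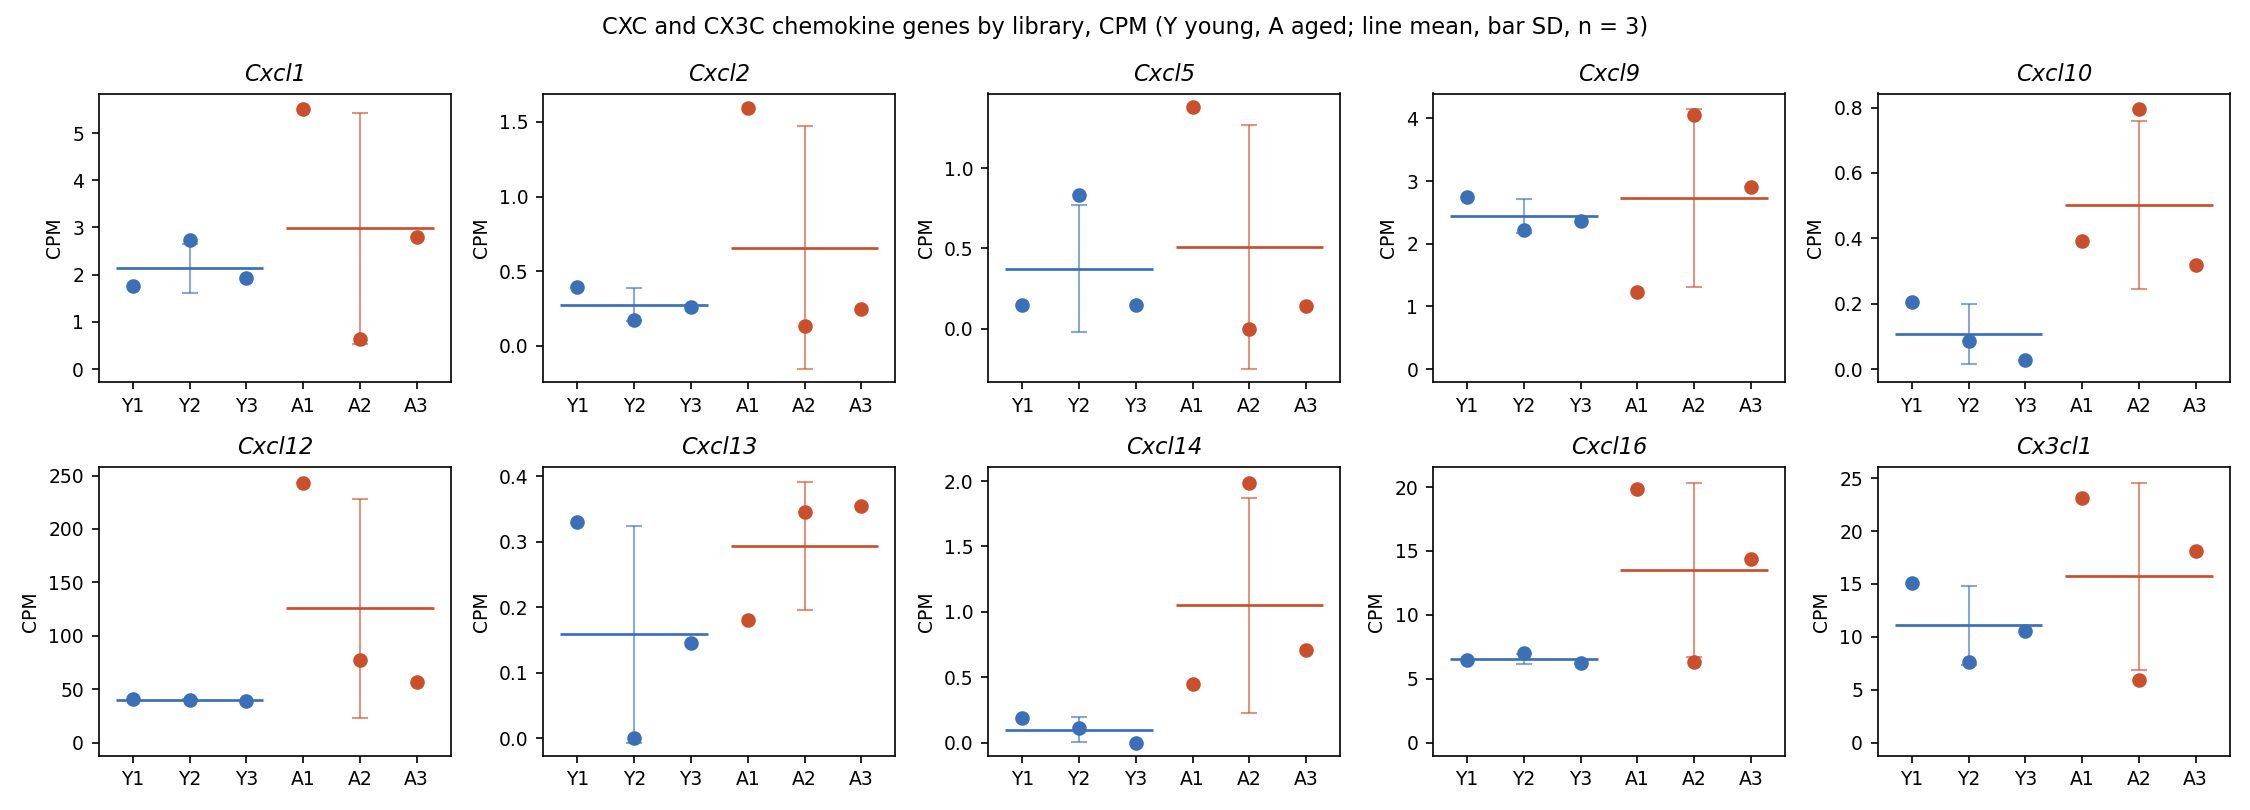
Each panel gives the CPM of 1 chemokine gene in young (Y) and aged (A) replicates 1, 2 and 3, with the mean as a line and the SD as a bar (n = 3). The aged points lie above all young points for Cxcl10, Cxcl12 and Cxcl14, and aged replicate 1 is the highest library for Cxcl1, Cxcl2, Cxcl5, Cxcl12, Cxcl16 and Cx3cl1.

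Cxcl12 (ENSMUSG00000061353) spans positions 117168535 to 117181367 of chromosome 6 (GRCm38). There were 1969, 1396 and 1354 reads in young replicates 1, 2 and 3, or 40.6, 40.1 and 39.5 CPM. In aged replicates 1, 2 and 3 it had 8090, 2917 and 1606 reads, or 243, 77.3 and 56.8 CPM. The young libraries were nearly level, and the aged libraries all lay above them but differed widely among themselves. The fitted difference was a 3.14-fold higher level in aged aorta (log2 1.65, 95% interval 0.44 to 2.87, unadjusted p = 0.0145, adjusted p = 0.390 by edgeR). Without aged replicate 1 the log2 fold change was 0.74 (unadjusted p = 0.00620, adjusted p = 0.494 by edgeR), where 8.35% of all genes had an unadjusted p under 0.05. Without young replicate 1 it was 1.66 and without aged replicate 2 it was 1.91, with adjusted p of 0.428 and 0.210 by edgeR. By DESeq2 the adjusted p was 0.0209, and Cxcl12 was the only one of the 5 chemokine genes with an adjusted p there that passed. Over all genes 2.08% passed by DESeq2.

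Neither receptor of Cxcl12 passed the test. Ackr3, which binds Cxcl12 and removes it, was at 50.4, 40.9 and 33.0 CPM in young replicates 1, 2 and 3 and at 101, 31.1 and 102 CPM in aged replicates 1, 2 and 3. Aged replicate 2 was the lowest library and the other aged libraries the highest, so the groups overlapped. The log2 fold change of Ackr3 was 0.91 with a standard error of 0.43 (adjusted p = 0.517 by edgeR), and without aged replicate 2 it was 1.29 (adjusted p = 0.0591 by edgeR). Cxcr4, the signalling receptor of leukocytes and progenitors, had between 11 and 63 reads per library. It was at 1.12 ± 0.752 CPM in young and 0.727 ± 0.227 CPM in aged aorta (SD, n = 3 each). Its log2 fold change was -0.63, standard error 0.68 (adjusted p = 0.758 by edgeR), and became -0.11 without young replicate 2, -1.06 without young replicate 3 and -0.40 without aged replicate 2. Mmp2, a matrix protease that can inactivate Cxcl12, was at 71.6 ± 12.2 CPM in young and 143 ± 82.9 CPM in aged aorta (SD, n = 3 each; adjusted p = 0.501 by edgeR). Dpp4, which trims Cxcl12 and the Cxcr3 ligands, was at 4.02 ± 3.75 CPM and 7.23 ± 5.32 CPM (SD, n = 3 each; adjusted p = 0.705 by edgeR).

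Fibroblast markers moved with part of the Cxcl12 values. Summed over 7 fibroblast markers, CPM lay between 3669 and 5682 in young aorta and was 9567, 3277 and 6965 in aged replicates 1, 2 and 3. Aged replicate 1 was thus highest in both. Aged replicate 2 was below every young library in this sum, of which Col1a1 and Col1a2 made up the most, but the single markers differed there. Pdgfra at 54.5 CPM and Dpt at 154 CPM were above every young library, as Cxcl12 was, Dcn at 548 CPM lay within the young range, and Lum, Pi16 and both collagens lay below it. Of the 7 fibroblast markers, Pdgfra, Dcn, Pi16 and Dpt had an unadjusted p under 0.05 by edgeR, all 4 higher in aged aorta. By edgeR 0 passed the adjusted limit, and Col1a1 and Col1a2 had log2 fold changes of 0.17 and -0.05. By DESeq2, 2 of the 7 passed, Pdgfra and Dpt, with adjusted p of 0.0282 and 0.00653. Over all genes, 5.56% were higher at the unadjusted limit by edgeR and 2.08% passed by DESeq2. Their most abundant members by CPM, Col1a2 and Col1a1, were at 1573 to 2989 CPM and 774 to 1978 CPM. The part of fibroblasts in the difference was not tested.

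Cxcl16 (ENSMUSG00000018920), the transmembrane chemokine that also serves macrophages as a scavenger receptor for oxidized lipoprotein, lies on chromosome 11 from 70453983 to 70459984. It was at 6.44, 6.98 and 6.26 CPM in young replicates 1, 2 and 3 and at 19.9, 6.28 and 14.4 CPM in aged replicates 1, 2 and 3. Aged replicate 2 lay within the young range and the other aged libraries above it. The fitted difference was 2.06-fold (log2 1.04, 95% interval 0.11 to 1.97, unadjusted p = 0.0326, adjusted p = 0.446 by edgeR). Without aged replicate 2 the log2 fold change was 1.39 (unadjusted p = 0.000529, adjusted p = 0.0589 by edgeR, where 13.8% of genes had an unadjusted p under 0.05 and 0.642% passed the adjusted limit). Without aged replicate 1 it was 0.65 (adjusted p = 0.681 by edgeR). Cxcl16 shares 552 bases with Zmynd15 on the other strand, and whether the counting used strand is not given in the sources used here. Zmynd15 stayed between 36 and 99 reads per library, against 215 to 660 reads for Cxcl16. Cxcr6, the receptor of Cxcl16, had 0 reads in every young library and 5, 0 and 5 reads in aged replicates 1, 2 and 3.

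Macrophage markers had the same order of libraries at the top as Cxcl16. Their sum over 10 genes was between 108 and 148 CPM in young aorta, 147 CPM in aged replicate 2, 320 CPM in aged replicate 3 and 491 CPM in aged replicate 1. All 10 markers had a fitted difference above 0, with Lyz2 and C1qa at log2 fold changes of 1.32 and 1.59. Of the 10, 9 had an unadjusted p under 0.05 by edgeR, against 5.56% of all genes tested that were higher. By that test 0 of the 10 passed the adjusted limit. By DESeq2, where 2.08% of all genes passed, 5 of the 10 did, namely Csf1r, Lyz2, Mrc1, C1qa and C1qb. The part of macrophages in the Cxcl16 difference was not tested.

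Cx3cl1 (ENSMUSG00000031778), or fractalkine, is held on the surface of endothelial cells and catches monocytes bearing Cx3cr1. It lies on chromosome 8 from 94772009 to 94782427. Young replicates 1, 2 and 3 had 15.1, 7.64 and 10.6 CPM, and aged replicates 1, 2 and 3 had 23.1, 5.88 and 18.2 CPM. Aged replicate 2 was the lowest of all libraries and the other aged libraries were the highest. The log2 fold change was 0.50 (95% interval -0.66 to 1.66, adjusted p = 0.735 by edgeR). Leaving out aged replicate 1, the highest library, took it to 0.11 (adjusted p = 0.965 by edgeR), and leaving out young replicate 2 took it to 0.30. It was 0.79 without young replicate 1, 0.89 without aged replicate 2 (unadjusted p = 0.0252, adjusted p = 0.303 by edgeR) and 1.18 without both (unadjusted p = 0.00513, adjusted p = 0.160 by edgeR). Endothelial markers, summed over 8 genes, were at 1857 CPM in aged replicate 3 and between 454 and 598 CPM in the other libraries, and aged replicate 1, the library with the most Cx3cl1, was at 516 CPM. The part of endothelial cells in the Cx3cl1 values was not tested. Pecam1 and Vwf, the most abundant of these markers by CPM, were at 870 and 404 CPM in aged replicate 3 and made up most of its sum. Cdh5, Tie1 and Tek were at 106, 150 and 123 CPM there, against at most 46.8, 34.7 and 36.1 CPM elsewhere. Eng, Kdr and Erg rose less, to 116, 33.4 and 54.8 CPM, against at most 100, 29.2 and 52.8 CPM elsewhere. Cx3cr1 was at 0.801 ± 0.346 CPM in young and 0.621 ± 0.491 CPM in aged aorta (SD, n = 3 each), with a log2 fold change of -0.38 (adjusted p = 0.888 by edgeR) that became 0.13 without aged replicate 2, -1.06 without aged replicate 1, -0.69 without young replicate 2, -0.17 without young replicate 1 and -0.20 without young replicate 3. The releasing proteases Adam10 and Adam17 had log2 fold changes of 0.28 and 0.13, with adjusted p of 0.771 and 0.879 by edgeR.

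**Figure D3:**
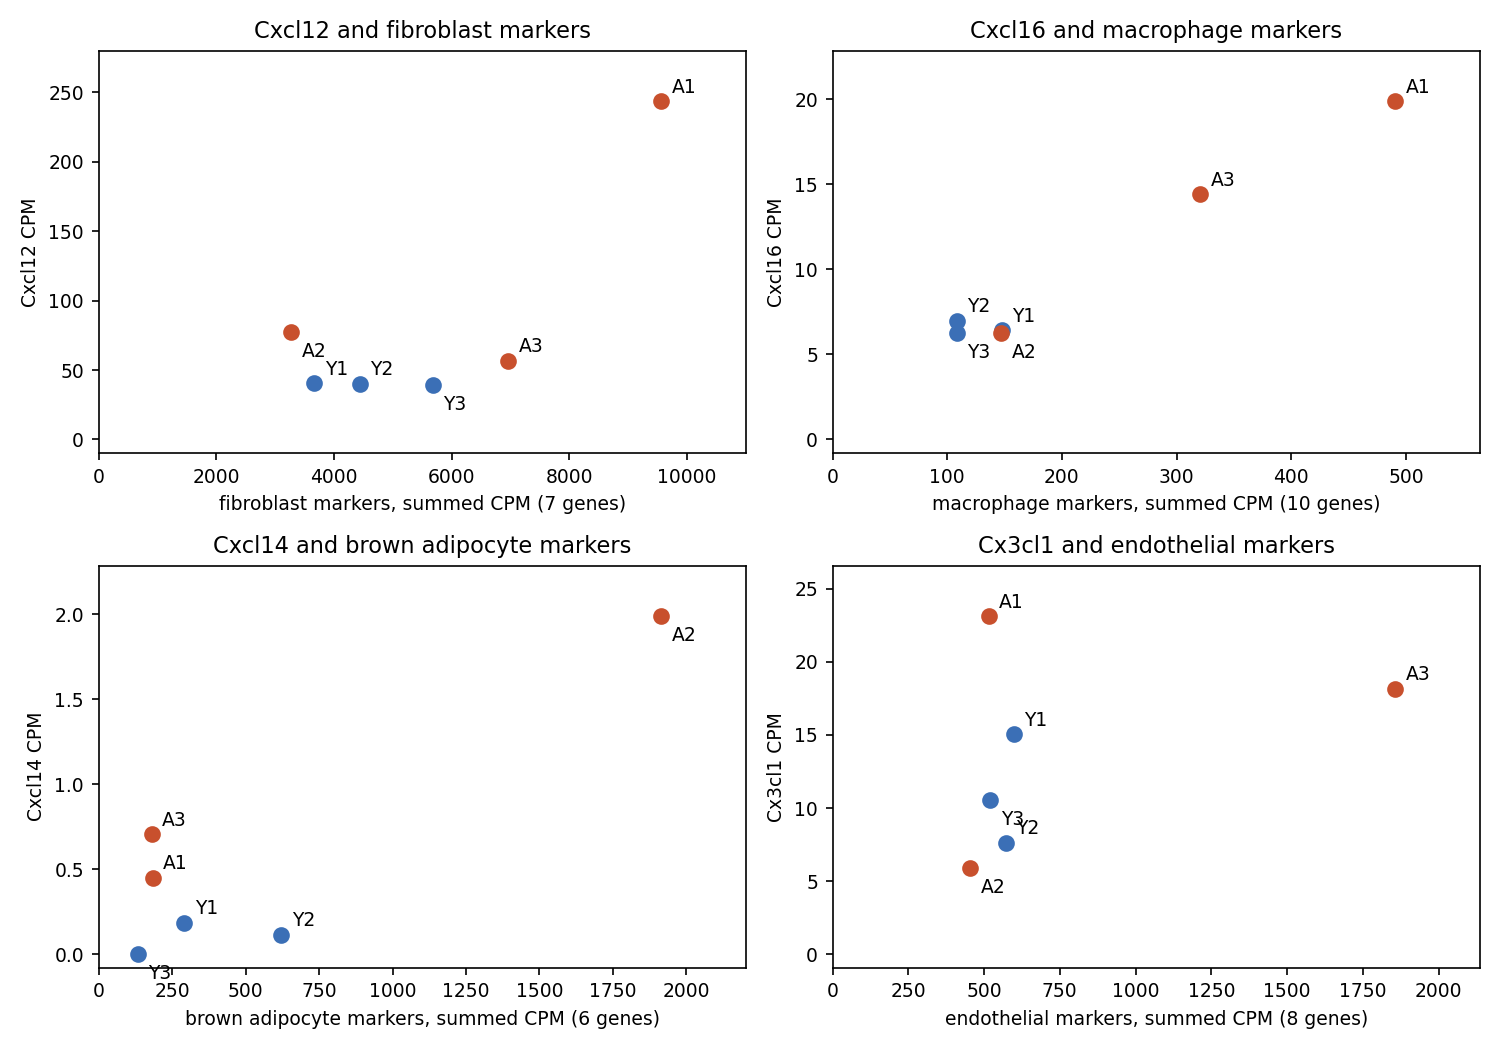
Each panel plots the CPM of 1 chemokine gene against the summed CPM of markers of 1 cell type, with a point for each of the 6 libraries (Y young, A aged, replicates 1 to 3). Cxcl16 is high in the same 2 aged libraries as the macrophage markers, whereas Cxcl12 is higher in aged replicate 2 than in any young library where the fibroblast sum, mostly Col1a1 and Col1a2, is lowest.

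Cxcl14 (ENSMUSG00000021508), on chromosome 13 from 56288643 to 56296551, had the largest fitted difference of the 7 tested genes and few reads. It had 9, 4 and 0 reads in young replicates 1, 2 and 3 and 15, 75 and 20 reads in aged replicates 1, 2 and 3. As CPM these are 0.186, 0.115 and 0 in young aorta and 0.451, 1.99 and 0.708 in aged aorta, where the 0 reads of young replicate 3 allow up to 0.0874 CPM by counting error alone. The aged libraries all lay above the young ones, and aged replicate 2 was the highest. The log2 fold change was 3.30 with a 95% interval of 0.83 to 5.77 (unadjusted p = 0.0158, adjusted p = 0.392 by edgeR). Without aged replicate 2 it was 2.45 (unadjusted p = 0.0797, adjusted p = 0.419 by edgeR), and without young replicate 1 it was 4.12. DESeq2 gave Cxcl14 an unadjusted p of 0.00139 and no adjusted p. Aged replicate 2 also held 1915 CPM over 6 brown adipocyte markers, against 133 to 621 CPM in the other libraries. Aged replicates 1 and 3 were at 184 and 180 CPM in those markers, below young replicates 1 and 2, and still above them in Cxcl14. The part of brown fat in the value of aged replicate 2 was not tested.

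The neutrophil chemokines Cxcl1, Cxcl2 and Cxcl5 lie together on chromosome 5 between positions 90759360 and 90905938. Cxcl1 was at 1.75, 2.73 and 1.92 CPM in young replicates 1, 2 and 3 and at 5.51, 0.636 and 2.80 CPM in aged replicates 1, 2 and 3. The aged libraries spanned more than the whole young range. Its log2 fold change was 0.48 (95% interval -1.13 to 2.09, adjusted p = 0.821 by edgeR), and it turned to -0.32 without aged replicate 1 and was 0.96 without aged replicate 2. Cxcl2 had 19, 6 and 9 reads in young replicates 1, 2 and 3 and 53, 5 and 7 reads in aged replicates 1, 2 and 3. Cxcl5 had 7, 29 and 5 reads in young and 46, 0 and 4 reads in aged replicates 1, 2 and 3, where the 0 allows up to 0.0795 CPM. All 3 genes were highest in aged replicate 1 and lowest in aged replicate 2, and aged replicate 3 lay within or near the young range. Tested with no filter on low counts, Cxcl2 and Cxcl5 had log2 fold changes of 1.23 and 0.45 (adjusted p = 0.654 and 0.938 by edgeR). Cxcl1 and Cxcl2 are close paralogs, and how reads matching both were counted is not given in the sources used here.

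Reads of the receptors of these chemokines, and of markers of the cells that answer them, were few. Cxcr2 had at most 7 reads in a library and Cxcr1 had 0 reads in all 6. Of 7 neutrophil markers 3 were tested, all with fitted differences above 0, and the sum of the list was 0.372 to 1.89 CPM in young and 2.89 to 4.99 CPM in aged aorta. S100a9, Csf3r and Ngp had every aged library above every young one, which held for 7.74% of all genes tested, and Ngp was not tested. In S100a8, Retnlg and Camp the groups overlapped. Camp had the lower mean in aged aorta, with 0, 4 and 14 young reads and 3, 0 and 5 aged reads. Csf3r had a log2 fold change of 1.45 (unadjusted p = 0.0397, adjusted p = 0.458 by edgeR), and Ngp had 0 reads in young aorta and 23, 10 and 20 reads in aged replicates 1, 2 and 3. Ly6g had 0 reads in every library. The part of neutrophils in the values of Cxcl1, Cxcl2 and Cxcl5 was not tested. The immediate early genes that tissue handling can induce had no common direction, with Junb at a log2 fold change of 1.22 and Atf3 at -1.79 (adjusted p = 0.377 each by edgeR, and 0.0111 and 0.00779 by DESeq2) and Egr1 and Dusp1 at -0.70 and -0.38 (adjusted p = 0.549 and 0.738 by edgeR). Their sum over 10 genes was 1691 CPM in aged replicate 1 and reached 1690 and 1770 CPM in young replicates 1 and 3, where Cxcl1 was at 1.75 and 1.92 CPM. The part of tissue handling in the Cxcl1 values was not tested. Of 17 upstream genes of the NF-kB arm, 14 were tested, and 0 passed the adjusted limit by edgeR. At an unadjusted p under 0.05, 3 were higher and 1 lower in aged aorta (5.56% and 4.82% of all genes tested). Nfkbia, the inhibitor that NF-kB itself induces, was at 38.5 ± 9.72 CPM in young and 85.8 ± 32.6 CPM in aged aorta (SD, n = 3 each; log2 fold change 1.16, adjusted p = 0.382 by edgeR), and it passed by DESeq2 with an adjusted p of 0.0459. The interleukin-17 receptor Il17ra was at 5.45 ± 1.69 and 11.0 ± 2.84 CPM (SD, n = 3 each) and interleukin-1 beta, Il1b, at 0.154 ± 0.145 and 0.762 ± 0.566 CPM (SD, n = 3 each), with adjusted p of 0.390 and 0.448 by edgeR. The gene that was lower was Nfkbiz, a cofactor of NF-kB, at a log2 fold change of -0.67 (adjusted p = 0.462 by edgeR). Tnf had 8 reads in young replicate 1 and 0 elsewhere, Il17a had 0 reads in all libraries, and Zfp36, which destabilizes chemokine transcripts, had a log2 fold change of -0.03.

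The Cxcr3 ligands Cxcl9 and Cxcl10 are neighbours on chromosome 5, at 92321347 to 92328079 and 92346638 to 92348889. Cxcl9 was at 2.75, 2.21 and 2.36 CPM in young replicates 1, 2 and 3 and at 1.23, 4.06 and 2.90 CPM in aged replicates 1, 2 and 3. Aged replicate 1, the highest library for 6 of the other genes, was the lowest for Cxcl9. The log2 fold change was 0.16 (95% interval -0.90 to 1.23, adjusted p = 0.915 by edgeR), and it turned to -0.24 without aged replicate 2 and was 0.51 without aged replicate 1 and 0.27 without young replicate 1. Cxcl10 had 10, 3 and 1 reads in young replicates 1, 2 and 3 and 13, 30 and 9 reads in aged replicates 1, 2 and 3, or at most 0.206 CPM in young and at least 0.319 CPM in aged aorta. The groups did not overlap. With no filter on low counts the log2 fold change of Cxcl10 was 2.15 (unadjusted p = 0.0529, adjusted p = 0.627 by edgeR), and DESeq2 gave an unadjusted p of 0.0460 and no adjusted p. Cxcl10 lies wholly within Art3 on the other strand, which had between 430 and 1193 reads per library, so its few reads are uncertain. Aged replicate 2 was the highest library for both Cxcl10 and Art3. In aged replicates 1 and 3 Art3 was at 20.9 and 15.2 CPM, below every young library, whereas Cxcl10 was above every young library.

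Cxcr3 had 0 reads in every young library and 5, 6 and 7 reads in aged replicates 1, 2 and 3. Pooled over the group, that is 0.181 CPM in aged aorta, 7.11 times the 0.0255 CPM that 3 reads over the young group would give. The ratio leaves out the counting error of the 18 aged reads and the spread between mice, and Cxcr3 was not tested. T cell markers did not separate the groups, with sums over 7 genes of 1.08 to 6.72 CPM in young and 1.93 to 2.48 CPM in aged aorta. Interferon gamma, Ifng, had 0 reads in all 6 libraries. Of 14 genes of the interferon arm, 13 were tested, and 0 passed the adjusted limit by edgeR. At an unadjusted p under 0.05, 1 was higher and 1 lower in aged aorta (5.56% and 4.82% of all genes tested). These were the paired chains of the type I interferon receptor, Ifnar2 at a log2 fold change of 0.55 and Ifnar1 at -0.43 (adjusted p = 0.390 and 0.411 by edgeR). Irf7, a factor that interferon induces, was at 7.73 CPM in aged replicate 1 and between 2.42 and 4.42 CPM elsewhere, and the kinase Jak1 had a log2 fold change of 0.19.

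Cxcl13 (ENSMUSG00000023078), on chromosome 5 from 95956951 to 95961068, had 16, 0 and 5 reads in young replicates 1, 2 and 3 and 6, 13 and 10 reads in aged replicates 1, 2 and 3. The highest young library was level with the aged ones. Its log2 fold change was 0.83 (95% interval -1.66 to 3.31, adjusted p = 0.799 by edgeR). It was 1.97 without young replicate 1, which held 16 of the young reads, and 0.29 without young replicate 2 (adjusted p = 0.582 and 0.944 by edgeR). Cxcr5 had at most 11 reads in a library, and the B cell marker sum over 5 genes was 12.5 to 35.6 CPM in young and 20.6 to 30.0 CPM in aged aorta. Of 8 genes of the lymphotoxin arm that supports Cxcl13 in lymphoid tissue, 4 were tested. Of these, 1 was higher at an unadjusted p under 0.05 by edgeR, against 5.56% of all genes tested. That gene was Ccl19, a homeostatic chemokine of T cell zones, at 1.12 ± 0.192 CPM in young and 3.99 ± 2.10 CPM in aged aorta (SD, n = 3 each; log2 fold change 1.83, adjusted p = 0.377 by edgeR and 0.0340 by DESeq2). Ccl21a, another ligand of its receptor, was at 2.32 ± 2.54 and 4.89 ± 3.70 CPM (SD, n = 3 each), and the receptor gene Ltbr had a log2 fold change of 0.06.

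**Figure D4:**
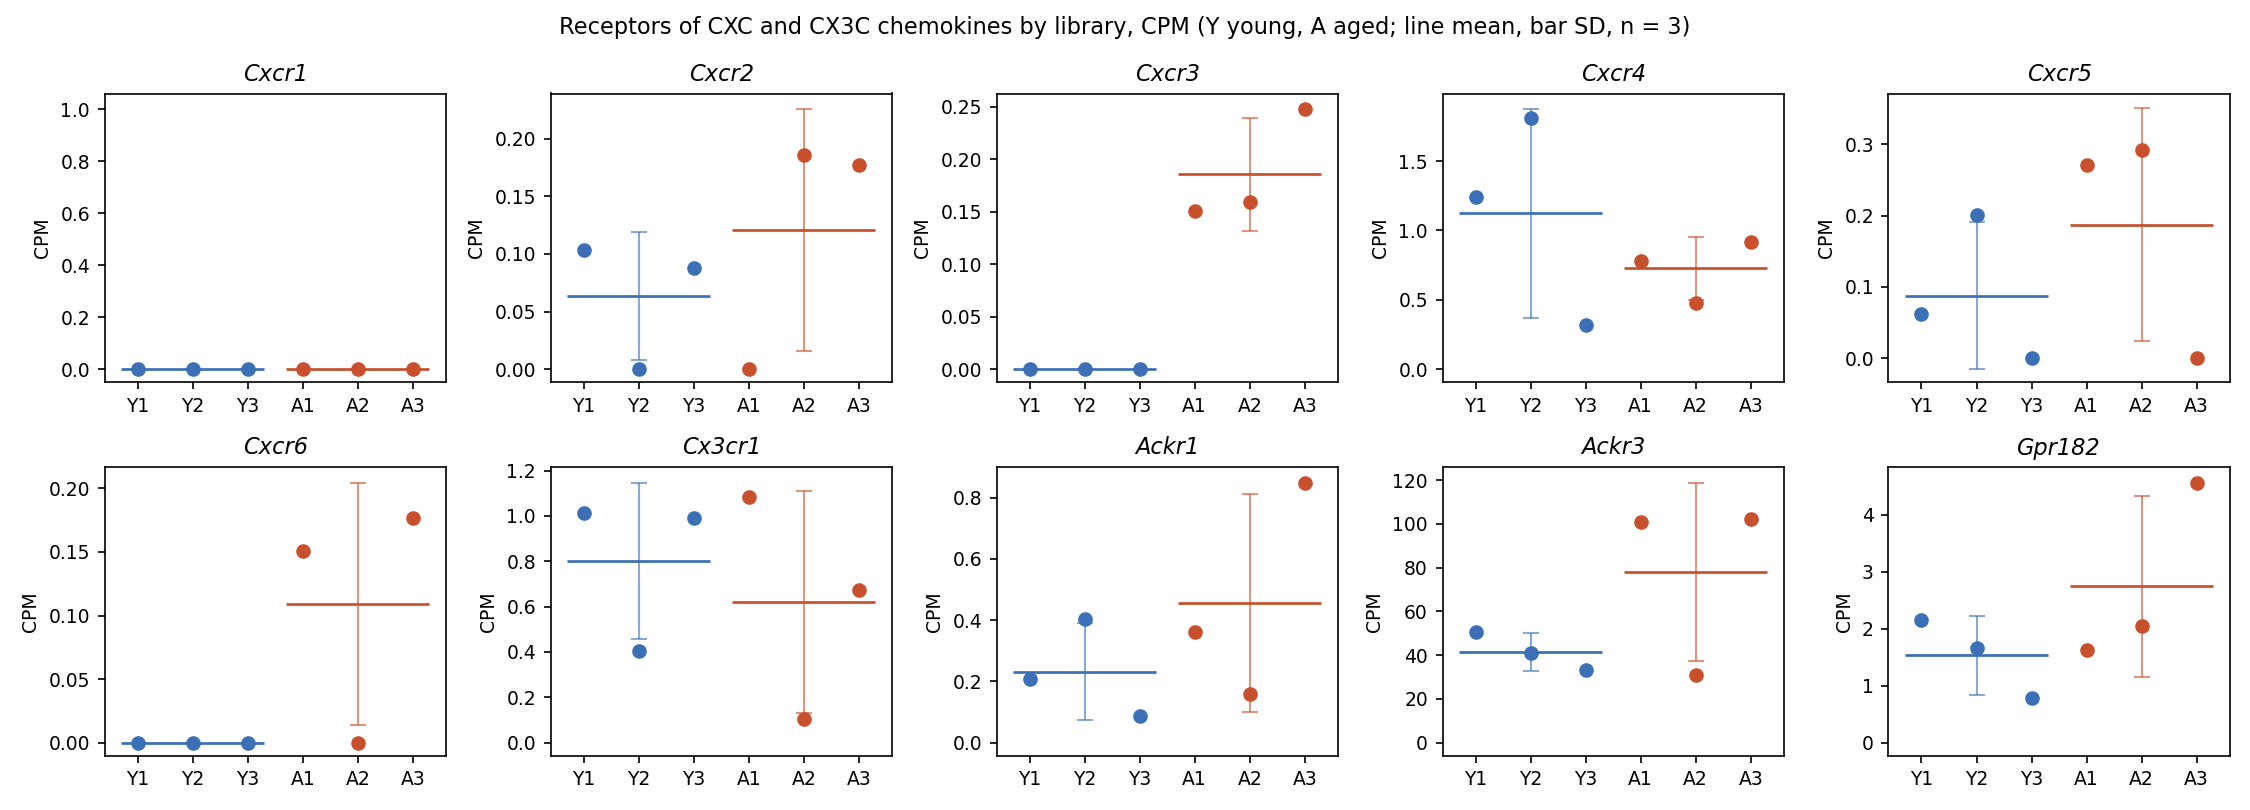
Each panel gives the CPM of 1 receptor gene in young (Y) and aged (A) replicates 1, 2 and 3, with the mean as a line and the SD as a bar (n = 3). Ackr3 is near 101 CPM in aged replicates 1 and 3 and 50.4 CPM or less elsewhere, Cxcr3 has no reads in young aorta, and Cxcr1 has none in any library.

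Of the 10 receptors listed, 5 were tested, and 0 had an unadjusted p under 0.05 by edgeR. Besides Ackr3, Cxcr4 and Cx3cr1 these were Ackr1, the chemokine-binding receptor of venular endothelium, and Gpr182, a scavenger of endothelium, with log2 fold changes of 0.95 and 0.83 (adjusted p = 0.708 and 0.622 by edgeR). Without aged replicate 3 these were 0.16 and 0.25, and without young replicate 3 they were 0.59 and 0.53. Ackr1 was at 1.59 without young replicate 2. Of 6 other CXC ligands, Cxcl11 had 0 reads in all libraries, Cxcl3 had 7 reads in young replicate 3 alone, Cxcl17 had 2 reads there alone, and Cxcl15 had at most 9 reads. The platelet chemokines Pf4 and Ppbp were at 11.8 ± 4.80 and 16.2 ± 8.92 CPM in young and 14.0 ± 4.97 and 9.12 ± 7.33 CPM in aged aorta (SD, n = 3 each), with adjusted p of 0.841 and 0.718 by edgeR. Of 13 genes of receptor signalling, 12 were tested and 0 had an unadjusted p under 0.05 by edgeR. Dock2 and Rac2, which drive leukocyte migration, had log2 fold changes of 0.86 and 0.82, the arrestin Arrb1 was at -0.76, and Cdc42 was at 0.06. Mmp14, a membrane protease, had 0.22.

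The genes whose values across the 6 libraries were most like those of a chemokine were sought for the 3 that varied most among those with a mean of at least 1 CPM, by the root mean square difference of centred log2 CPM over 14095 genes. Nearest to Cxcl12 were Gm765 and Foxd2os, at 0.33 and 0.34. Foxd2os is antisense to another gene, and reads from the pair may not have been separated. Nearest to Cxcl1 were Hic1, a transcriptional repressor, at 0.15 and Cilp, a matrix protein, at 0.32. Hic1 was at 3.86, 5.83 and 5.45 CPM in young and 12.4, 1.80 and 7.50 CPM in aged replicates 1, 2 and 3. Nearest to Cx3cl1 were Ifitm2, an interferon-induced membrane protein, at 0.096 and Dock9 at 0.22. Ifitm2 was at 168, 102 and 122 CPM in young and 250.1, 70.3 and 199 CPM in aged replicates 1, 2 and 3, the same order of libraries as Cx3cl1. These are descriptions of 6 libraries.

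**Figure D5:**
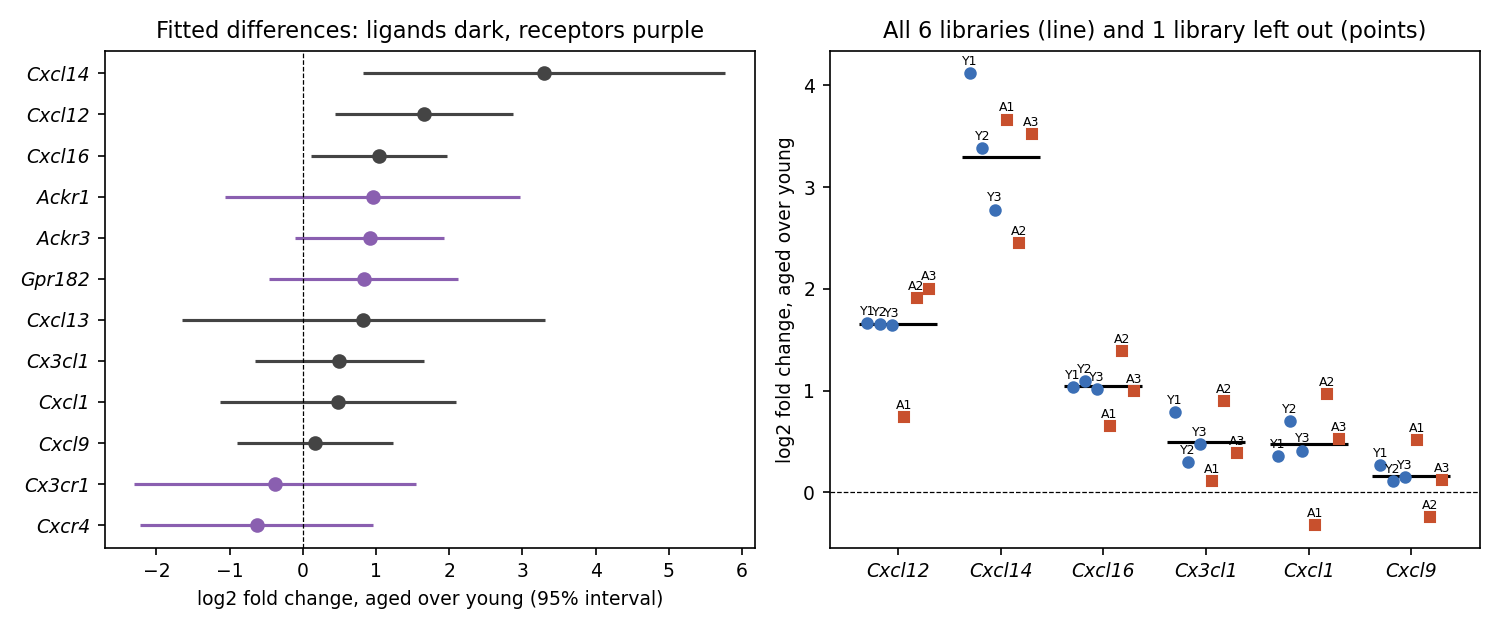
The left panel gives the log2 fold change of aged over young aorta with its 95% interval from edgeR for the 7 tested chemokine genes and 5 receptors, and the right panel gives the value with all 6 libraries as a line and with 1 library left out as points named for that library. The intervals of Cxcl12, Cxcl14 and Cxcl16 lie above 0, and leaving out aged replicate 1 takes Cxcl12 from 1.65 to 0.74 and Cxcl1 from 0.48 to -0.32.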

How the data were processed

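RNA from 6 aortas was sequenced in single-ended reads. The authors deposited counts of reads per gene, which are whole numbers without normalization, and FPKM, which they scaled for gene length and library size. The labels name build mm10. The aligner, counting tool and annotation are not given in the sources used here. Of 55335 gene identifiers, 55154 were found in GENCODE M21, the source of the gene coordinates. Totals of 31049632 to 45832185 counts per library and 3 mice a group set the precision.

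The whole count table was filtered (filterByExpr, minimum count of 10, minimum total of 15), normalized by TMM and fitted by quasi-likelihood in R 4.3.3 with edgeR 4.0.16, with age as the single term. The Benjamini-Hochberg adjustment covered all 16612 genes in the fit. Standard errors are the log2 fold change divided by the square root of F. The procedure was tested on simulated data. Alternatives were RLE size factors, other filters, robust fitting, a replicate block, each library left out, DESeq2 1.42.0 and limma 3.58.1, the last run on the authors' FPKM as log2 with 1 or 0.1 added. Floors are 3 counts and cover counting error only. Nearest genes used log2 CPM with 0.1 added.

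The chemokine genes and the gene lists were chosen with earlier results of these data known. Named are all chemokine genes, all receptors and other ligands, the 3 genes of smallest p and the most abundant gene of each other list where they bear on a result, the 2 most abundant markers of a cell type, Xist, Ddx3y and the nearest genes. Genes outside this rule (Ly6g, S100a8, S100a9, Csf3r, Retnlg, Camp, Ngp, Cdh5, Tie1, Tek, Kdr, Erg, Eng, Ucp1, Acta2 with Myh11, Pdgfra, Dcn, Lum, Pi16 and Dpt, Csf1r, Mrc1 and C1qb, Adam10, Adam17, Nfkbiz, Tnf, Il17a, Ifng, Art3 and Zmynd15) were named after their values were seen.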

Additional observations from a re-analysis of the deposited data

How the results depend on the processing

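The count of genes past an adjusted p of 0.05, 0 by edgeR, became 311 with DESeq2 and lay between 0 and 110 with 1 library left out, 110 being the count without aged replicate 2. It stayed at 0 with RLE size factors, no filter, at least 10 counts in every library, robust fitting, without both libraries that stood apart, without 399 mitochondrial, gene copy and rRNA-like entries, and with limma, at 1645 to 2766 genes of unadjusted p under 0.05. The count of chemokine genes past it, 0, became 1 of 5 with DESeq2 (Cxcl12), and was 0 under each other setting, each library left out included. That of listed receptor and pathway genes, 0, became 2 of 54 with DESeq2 (Nfkbia and Ccl19). Over all genes 2.08% passed with DESeq2. The count of chemokine genes with an unadjusted p under 0.05 was 3 of 7. It became 1 of 7 with limma, whether 1 or 0.1 was added to FPKM. It was 2 of 5 with at least 10 counts in every library, where Cxcl14 was not tested. Without the 399 entries it was 4 of 8, among them Cxcl10 and Cxcl14, which met the filter through their aged libraries alone. With DESeq2 it was 4 of 10, among them Cxcl10 and Cxcl14, to which DESeq2 gave no adjusted p. With 1 library left out it was 2 or 3, of 7 to 10 tested. The shares over all genes were 16.1% and 16% with limma and 11.4% with the stricter filter. They were 10.2% without the 399 entries and 6.13% to 13.8% with 1 library left out. With DESeq2, run without the low count filter, the share was 7.42% of 27724 genes. With limma the median over all genes shifted to -0.12 and -0.19 on the log2 scale.

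Direction turned for Cxcl1, between -0.32 without aged replicate 1 and 0.96 without aged replicate 2, and at -0.14 with limma and 0.1. It turned for Cxcl9, between -0.24 without aged replicate 2 and 0.51 without aged replicate 1, and at -0.14 without both libraries that stood apart, and -0.053 and -0.18 with limma and 1 or 0.1. It turned for Cx3cr1, between -1.06 without aged replicate 1 and 0.13 without aged replicate 2, and at 0.34 without both. The cause was not tested. Cxcl12, Cxcl13, Cxcl14, Cxcl16 and Cx3cl1 kept their direction under every alternative that gave a value.

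Blocking on replicate number gave 0 calls by edgeR over all genes (1782, or 10.7%, at an unadjusted p under 0.05). Of the 7 chemokine genes tested, 2 had an unadjusted p under 0.05. With this block the log2 fold changes of Cxcl12 and Cxcl16 were 1.34 and 0.90 (unadjusted p = 0.0299 and 0.0745 by edgeR). Same-numbered mice correlated at 0.0747, 0.112 and 0.0880 in their deviations from the group means. Each of the 6 libraries correlated best with its own number. These low values cannot settle whether same-numbered mice were paired, and the main fit did not pair them.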
